A study of Homo sapiens with 16 samples.

Results

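The T cell receptor gene segments are the V (variable), D (diversity), J (joining) and C (constant) segments of the alpha (TRA), beta (TRB), delta (TRD) and gamma (TRG) loci. They were taken as every window around a transcription start site (TSS) whose symbol is that of such a segment on chromosome 14 or 7. This gave 225 of the 237274 windows with distinct coordinates. TRA held 115 windows (54 V, 60 J and 1 C), TRB 78 (61 V, 1 D, 14 J and 2 C), TRD 11 (3 V, 3 D, 4 J and 1 C) and TRG 21 (14 V, 5 J and 2 C). A window is 2000 bp wide with the annotated start of the segment at its centre. TRA windows lay between positions 21620838 and 22548506 of chromosome 14, with the TRD windows among and after the TRAV segments at 22095032 to 22470698. TRB windows lay at 142298177 to 142814399 and TRG windows at 38248572 to 38369169 of chromosome 7.

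T cell receptors recognise antigen on the surface of T lymphocytes, as pairs of an alpha and a beta chain or of a gamma and a delta chain. Each developing T cell cuts and joins 1 V segment, a D segment in the beta and delta chains and a J segment by V(D)J recombination, and the joined piece is spliced to a C segment. Fibroblasts do not recombine these loci and carry the segments unjoined. Dimethylation of lysine 9 of histone H3 (H3K9me2) is a mark of silent chromatin that often covers wide domains without active genes.

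The cells were BJ-5ta, a human fibroblast cell line made immortal with the telomerase gene hTERT, used as the parental wild type and as ΔLEO1, a single clone in which exons 1 and 2 of LEO1 had been targeted with CRISPR/Cas9. LEO1 belongs to the PAF1 complex, which travels with RNA polymerase II. Cells of either genotype were grown in medium with 10% serum or held for 10 days in 0.1% serum, in which fibroblasts become quiescent, and each combination had 2 ChIP and 2 input libraries, marked A and B. The labels call the antibody H3, while the study's methods name H3K9me2, and the immunoprecipitated libraries are called ChIP here. Since nothing states that A and B came from separate cultures, p-values measure the spread between these libraries only, which may be technical.

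The 8 inputs held between 2844483 and 7947289 reads over the distinct windows, and 7 of the ChIP libraries between 1895572 and 3266061. Replicate A of the ΔLEO1 ChIP in 10% serum held 50 reads, none of them in a T cell receptor window, and was left out. ΔLEO1 in 10% serum therefore rests on 1 ChIP library. At the main LEO1 promoter window the 4 wild type inputs held 28, 51, 28 and 26 reads and the 4 ΔLEO1 inputs 16, 24, 20 and 24, so that the targeted gene was not absent from this window. Whether the altered bases lie inside it is not known from the counts. Levels are given as CPM, counts scaled to the total over the distinct windows, and since all windows share 1 width, levels of different segments can be set side by side. A CPM is relative to the rest of the table, so that it cannot show a change of the mark across all windows.

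The loci differed first in how many reads they could hold. In the input, which has no antibody step and measures how much DNA is sequenced and placed, the median window held 219 reads in TRA, 224 in TRD and 202 in TRG, against 219 over all windows. The median TRB window held 12 input reads, 18 of the 78 TRB windows held none, and every TRB window stayed below 80 reads, the smallest number used here for reading a single window. In total the TRB windows held 1137 input and 520 ChIP reads.

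**Figure D1:**
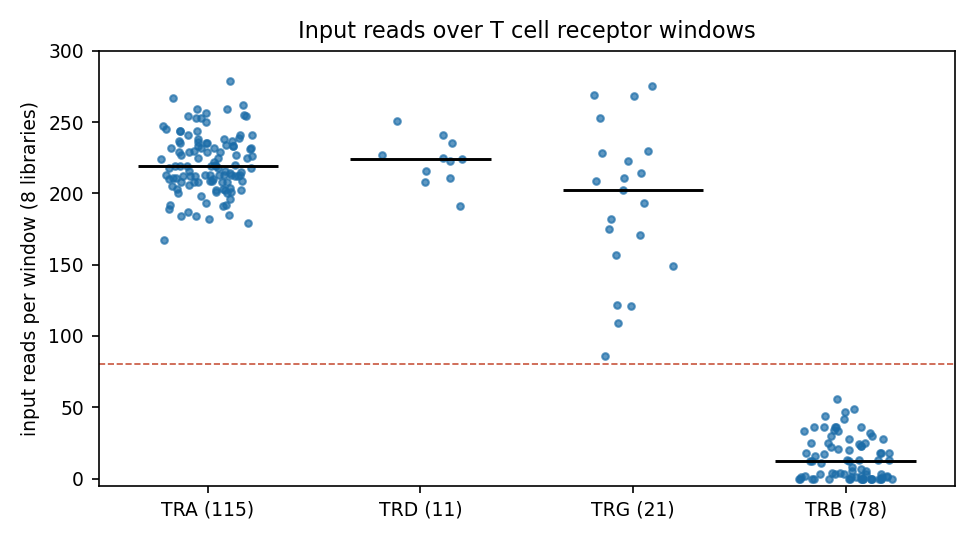
Input reads per window, summed over 8 libraries, on a linear axis for the TRA, TRD, TRG and TRB windows, with a point for each window, a black bar at the median and a dashed line at 80 reads. All 78 TRB windows lie under the line, whereas all windows of the other loci lie above it.

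The low TRB counts went together with how the windows were annotated. All 78 TRB symbols also had a window on an alternate contig of chromosome 7, and those copies held 0 reads in every library. Among windows on chromosomes of the whole table, the 10485 whose symbol was also listed on an alternate contig had a median of 6 input reads, and 58.2% of them had fewer than 80. The 177637 windows with no such copy had a median of 227, and 2.43% had fewer than 80. None of the TRA, TRD and TRG symbols had a copy on an alternate contig. The part of read placement in the TRB counts was not tested, and values of TRB rest on few reads.

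In TRA the ChIP libraries were enriched over input. The summed TRA windows held 1009, 1053, 1015 and 1001 CPM in the 4 wild type ChIP libraries (10% serum A and B, then 0.1% serum A and B) and 789, 859 and 899 CPM in the 3 ΔLEO1 ChIP libraries (10% serum B, then 0.1% serum A and B). The 8 inputs ranged from 468 to 586 CPM, so that every ChIP library lay above every input. The mean log2 difference was 0.80 (1.74-fold, exact permutation test of 7 against 8 libraries, two-sided p = 0.000311, the smallest possible, adjusted p = 0.000622 over 4 loci), and it turned to -1.13 where libraries were scaled by the totals of the peak table, in which ChIP reads are concentrated. Because 60 of the 115 TRA windows overlap another one, some reads counted more than once, and the difference over the 79 windows that do not overlap was 0.75.

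The TRD windows, which lie inside the same stretch of chromosome 14, were enriched as well. Their sum ranged from 77.0 to 93.4 CPM in the ChIP libraries and from 43.3 to 59.1 CPM in the inputs, with no overlap. The mean log2 difference was 0.70 (1.62-fold, exact permutation p = 0.000311, adjusted p = 0.000622), or -1.23 with the totals of the peak table.

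TRG stood less far above its input. The TRG sum held 82.0, 96.6, 123.8 and 119.7 CPM in wild type ChIP (order as above), 82.3, 116.3 and 116.6 CPM in ΔLEO1 ChIP, and 78.7 to 98.8 CPM in the inputs. Only 4 of the 7 ChIP libraries, the 4 of 0.1% serum, exceeded every input. The mean log2 difference was 0.26 (1.20-fold, exact permutation p = 0.0255, adjusted p = 0.0340), or -1.66 with the totals of the peak table. It no longer passed when any 1 of the 4 libraries of 0.1% serum was left out, with values from 0.222 to 0.237.

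For TRB the ChIP sums were 23.9 to 38.0 CPM and the input sums 21.0 to 28.1 CPM. The mean log2 difference of 0.24 did not pass (exact permutation p = 0.0668) and turned to -1.69 with the totals of the peak table, although the TRBV windows alone did at 0.54 (18.8 to 27.3 against 13.8 to 18.4 CPM, p = 0.000311). The 14 TRBJ windows together held 12, 0, 7 and 0 reads in the wild type ChIP libraries and 8, 35 and 21 in those of ΔLEO1, and reads of windows that lie this close are shared. The TRB sum without overlapping windows was 0.50 above input and passed.

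Segment types within a locus differed in their level over input. TRDC, the constant gene of the delta chain, stood highest at a mean log2 difference of 1.19 (8.00 to 13.7 CPM in ChIP, 2.89 to 5.22 CPM in input), followed by TRAJ at 0.85, TRDV at 0.74, TRAV at 0.71, TRDJ at 0.59, TRDD at 0.56, TRBV at 0.54 and TRGJ at 0.41. All of these passed the exact permutation test over 11 segment types, with adjusted p between 0.000684 and 0.00641, and all of them lay below input with the totals of the peak table, by 0.74 for TRDC up to 1.52 for TRGJ. The constant gene of the alpha chain, TRAC, had a difference of 0.32 (4.27 to 10.5 against 4.59 to 7.17 CPM), TRGC of 0.25 and TRGV of 0.21, and these did not pass (exact permutation p = 0.0842, 0.183 and 0.0967). Neighbouring types in this order were not tested against each other.

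**Figure D2:**
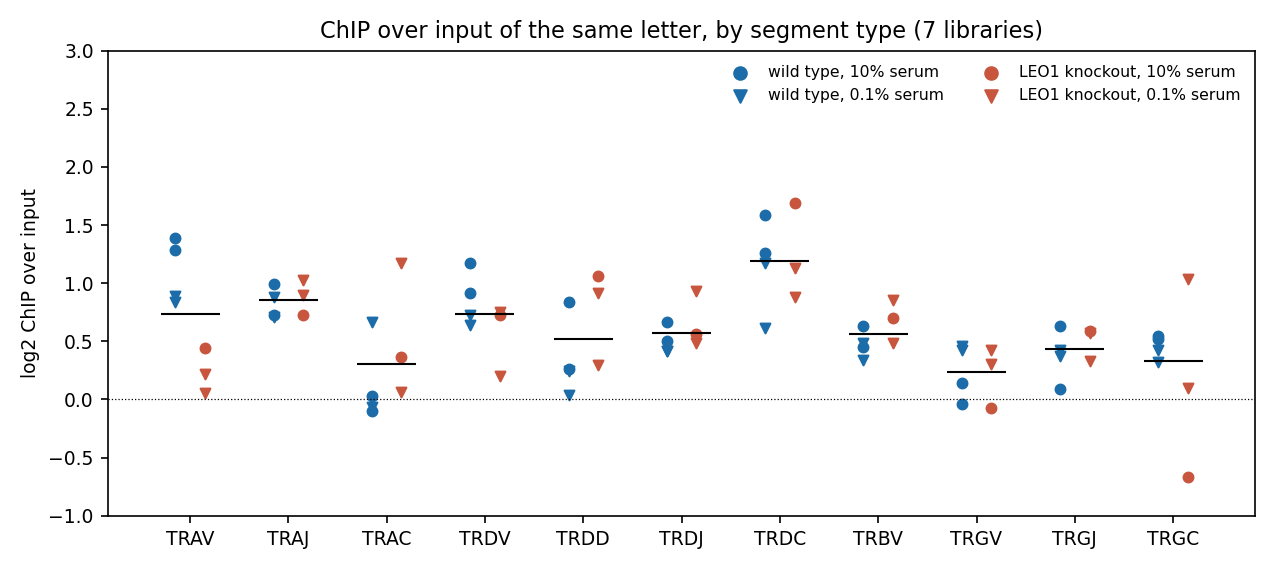
Log2 ChIP over input for each segment type, each ChIP library against the input with the same letter, genotype and serum (linear axis in log2 units), with circles for 10% serum, triangles for 0.1% serum, and a black bar at the mean of 7 libraries. TRAV ranges from 0.06 to 1.39 with the 4 wild type points on top, while TRAJ ranges from 0.71 to 1.03 with both genotypes mixed. With the totals of the peak table as library sizes the mean of every type shown is below 0.

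A fit of all windows in edgeR gave the calls for single segments. Of the 149 T cell receptor windows with enough reads to be tested, 4 were lower in ChIP than in input, beside 37.9% of all windows tested, 17 were not called, and the others were higher, beside 37.8%. The median log2 difference was 0.83 over the members tested and 0.0006 over all windows. By locus, 107 of 115 TRA windows, 9 of 11 TRD windows, 10 of 21 TRG windows and the 2 TRB windows tested, TRBV4-1 and TRBV5-4, were called higher. Only these 2 of the 78 TRB windows passed the read filter, which a window can pass through its ChIP counts alone. In the fit of the inputs alone 1 TRB window passed. The filter thus favoured the 2 TRB calls, and they are no support for enrichment in TRB. The 4 called lower were TRAV40, TRAV41, TRGV9 and TRGV5P. TRAC, which did not pass in the permutation test over libraries, was called higher in this fit (log2 difference 0.39). So were 1 of 2 TRGC and 7 of 14 TRGV windows, whose sums had not passed either.

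In TRA the highest pooled levels over input were those of TRAV8-7 (13.3 against 4.56 CPM, log2 difference 1.54), TRAJ45 (12.7 against 4.61 CPM, 1.47) and TRAJ19 (12.2 against 4.44 CPM, 1.46). All 3 lay above every input in each ChIP library, TRAV8-7 with 15.4, 14.1, 11.3 and 15.2 CPM in wild type and 15.3, 10.4 and 13.2 CPM in ΔLEO1. TRAV40 and TRAV41, the last V segments before the delta genes, stood lowest in TRA. TRAV40 held 0.43, 0.36, 2.05 and 0.84 CPM in wild type ChIP and 1.58, 1.22 and 0.91 CPM in ΔLEO1 ChIP, against 3.15 to 8.15 CPM in input, and its pooled log2 difference was -2.21. TRAV41 stood at -1.82 and TRAV38-2DV8 at -0.74, of which the latter did not pass (edgeR adjusted p = 0.0518).

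In TRD the pooled log2 differences ran from 0.30 (TRDJ3) and 0.43 (TRDD3) to 0.83 (TRDV3), 0.85 (TRDV2) and 1.18 (TRDC). The joining segments TRDJ1, TRDJ2 and TRDJ4 had differences of 0.70, 0.60 and 0.76, and the diversity segments TRDD1 and TRDD2 of 0.52 and 0.74. TRDD1 and TRDJ3 were the 2 TRD windows that did not pass (edgeR adjusted p = 0.0623 and 0.0553).

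In TRG the highest were TRGV11 (0.97), TRGV8 (0.78) and TRGJ1 (0.67), and the lowest TRGV9 (-1.05), TRGV5P (-0.76) and TRGV7 (-0.26). TRGV9, the V segment of most gamma-delta T cells in human blood, held between 0.85 and 3.98 CPM in the 7 ChIP libraries and 3.70 to 7.66 CPM in the inputs. The near-identical segments TRGV2 to TRGV5 had fewer input reads than the rest of the locus, 86 to 175 over the 8 libraries, and their values are uncertain because reads from one copy can match another. The 2 constant genes, TRGC1 and TRGC2, are such copies as well, with pooled differences of 0.13 and 0.58. The constant genes of the beta chain had almost no reads, TRBC1 14 in ChIP and 12 in input, and TRBC2 1 and 23.

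According to RefSeq, 8 of the 54 TRAV windows and 8 of the 14 TRGV windows belong to pseudogenes. The median pooled log2 ChIP over input was 0.86 for TRAV pseudogenes and 0.83 for the other TRAV segments. In TRG it was 0.52 for pseudogenes and 0.05 for the 6 other V segments, among which are TRGV2 to TRGV5.

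Between genotypes the V segments of the alpha locus differed in level. Since ΔLEO1 is a single clone, loss of LEO1 and other differences of that clone from the parental cells cannot be told apart. Summed over 54 windows, TRAV held 535 and 534 CPM in the wild type ChIP libraries of 10% serum, 475 and 497 CPM in those of 0.1% serum, 325 CPM in the ΔLEO1 library of 10% serum and 291 and 285 CPM in those of 0.1% serum. All 3 ΔLEO1 libraries thus lay below all 4 wild type libraries. In 0.1% serum the ratio of ΔLEO1 to wild type was 0.592 (288 ± 4.13 against 486 ± 15.7 CPM, SD, n = 2 each), with an exact permutation p of 0.33, the smallest that 2 against 2 allows. In 10% serum the ratio was 0.608 for 1 against 2 libraries, and over both sera it was 0.588 (3 against 4, exact permutation p = 0.0571, the smallest possible). The inputs of the same windows did not separate, with 239 to 283 CPM in ΔLEO1 and 204 to 268 CPM in wild type (ratio 1.10, exact permutation p = 0.343). Beside input, wild type TRAV stood 2.14-fold higher in ChIP (exact permutation p = 0.0286) and ΔLEO1 TRAV 1.15-fold higher (p = 0.0571), each the smallest p of its design. These levels are relative to all windows, and whether the absolute level of the mark at TRAV fell was not tested. In 0.1% serum the median log2 genotype difference in ChIP over all windows tested was -0.003, or 0.28 with the totals of the peak table. TRAV stayed lower in ΔLEO1 with those totals. The study reports, after scaling to fly reads, a global rise of the mark in quiescent ΔLEO1 cells. Fewer cells with the mark and less of the mark in each cell cannot be told apart in such bulk chromatin either.

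The J segments of the same locus did not follow. TRAJ held 470, 513, 534 and 496 CPM in wild type ChIP and 457, 563 and 604 CPM in ΔLEO1 ChIP (order as above), with overlap between genotypes. The ratio was 1.07 over both sera (exact permutation p = 0.40) and 1.13 in 0.1% serum. TRAC held 4.27, 6.15, 6.84 and 8.00 CPM in wild type and 6.86, 5.21 and 10.5 CPM in ΔLEO1.

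Since V and J reads come from the same library, their ratio does not depend on the library total. The ratio of TRAV to TRAJ reads was 1.14, 1.04, 0.889 and 1.00 in wild type ChIP and 0.710, 0.516 and 0.472 in ΔLEO1 ChIP. The ratio was thus lower in each ΔLEO1 library than in each wild type library, by a factor of 0.550 (exact permutation p = 0.0571, the smallest possible for 3 against 4). In the inputs it ranged from 0.825 to 0.990 in ΔLEO1 and from 0.774 to 0.916 in wild type (factor 1.07, exact permutation p = 0.257). Without overlapping windows the ChIP factor was 0.564. This measure was chosen after the sums had been seen.

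**Figure D3:**
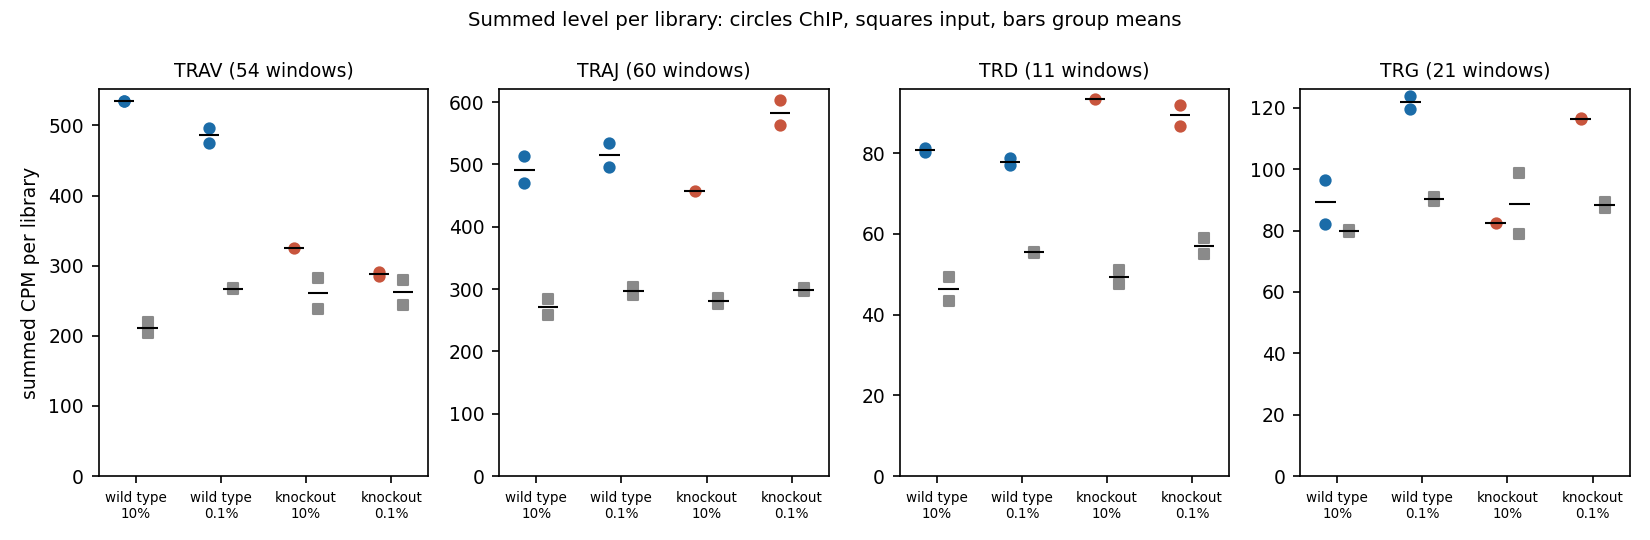
Summed CPM per library for TRAV, TRAJ, TRD and TRG on linear axes starting at 0, with circles for ChIP, squares for input and bars at group means of 1 or 2 libraries. In TRAV the ΔLEO1 circles, at 285 to 325 CPM, lie near the input squares, and the wild type circles lie at 475 to 535 CPM.

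Along the chromosome the lower ΔLEO1 level ran over most of the V stretch. From TRAV2 to TRAV38-2DV8, a stretch of 571 kb with 50 V windows (TRDV1 included), the pooled ΔLEO1 level was below that of wild type in 49 windows, and in 30 of them every ΔLEO1 library was below every wild type library, beside 5.25% of all windows tested. The median log2 difference was -0.78, with median levels of 9.81 CPM in wild type ChIP, 5.44 CPM in ΔLEO1 ChIP and 4.49 CPM in input. The pooled ΔLEO1 level was under the input level in 20 of these windows and the wild type level in 1. The exception was TRAV19, with 8.17 CPM in wild type and 8.84 CPM in ΔLEO1. The limits of the stretch were set after the values had been seen, and no test is attached to it.

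The V segments beyond either end of the stretch differed less or the other way. On the left, TRAV1-1 and TRAV1-2 had log2 differences of -0.40 and -0.01, and the olfactory receptor genes between TRAV1-1 and TRAV2, OR10G2, OR4E2 and OR4E1, had differences of -0.01, -0.28 and, in the 2 windows of OR4E1, -0.09 and -0.17. A window without a gene symbol at chr14:21698151-21700151, between OR4E1 and TRAV2, stood at -0.81, with overlap between the genotypes' libraries. On the right, TRAV39, TRAV40 and TRAV41 held 0.96 to 2.60 CPM in wild type and 1.22 to 4.21 CPM in ΔLEO1, below input in both genotypes. Another window without a symbol, at chr14:22333685-22335685 behind TRAV41, had 4.13 CPM in wild type and 2.45 CPM in ΔLEO1 (-0.76). Farther right, 21 of 60 TRAJ windows were lower in ΔLEO1, with a median log2 difference of 0.10, as were 0 of the 8 TRD windows other than V.

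**Figure D4:**
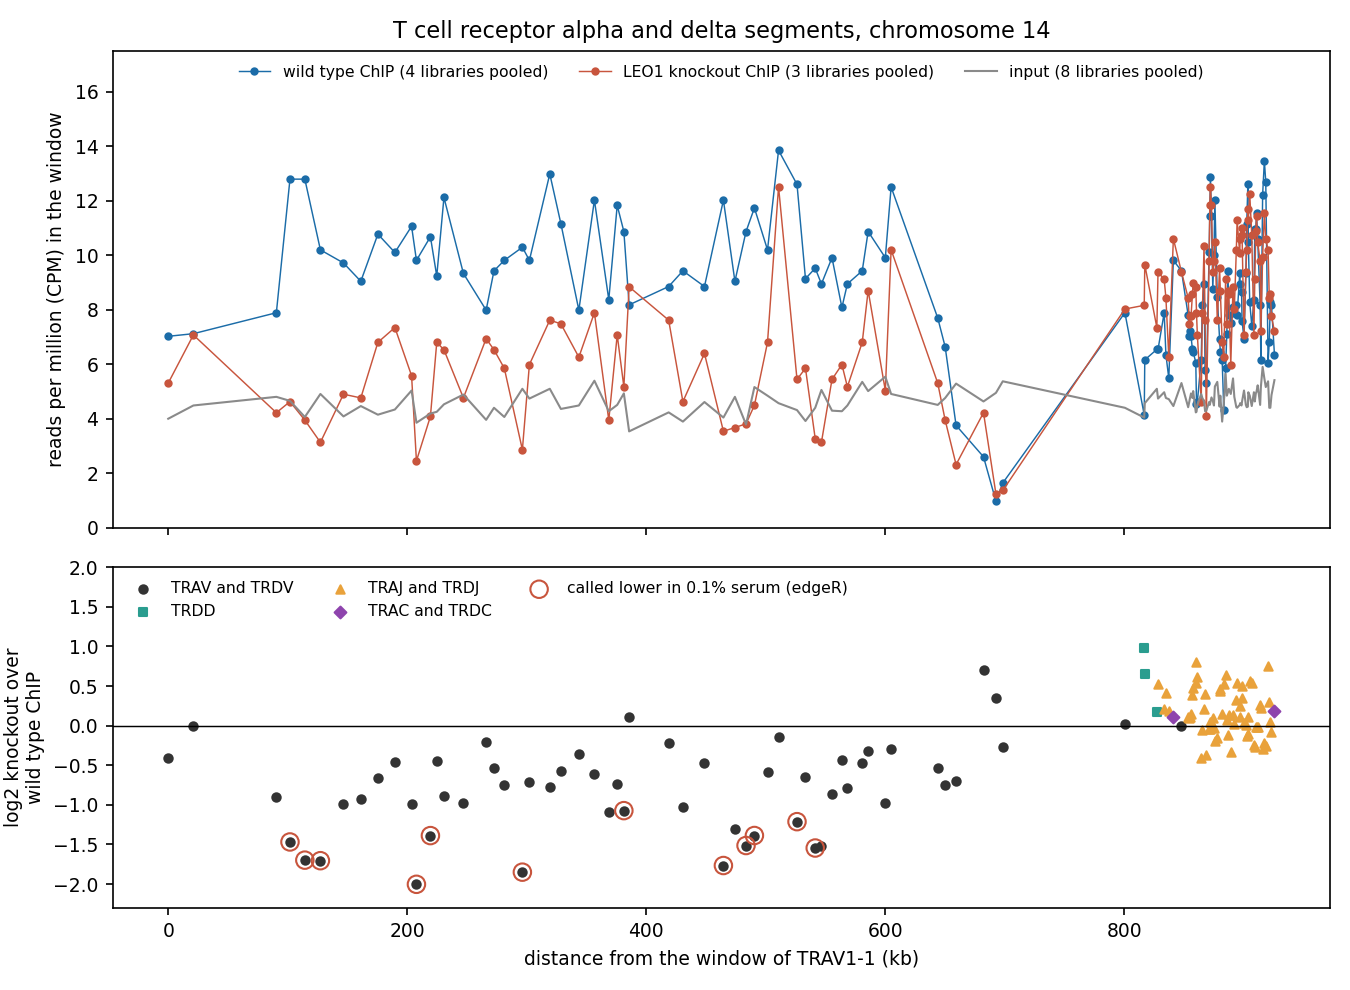
Pooled CPM in each TRA and TRD window against distance from the TRAV1-1 window in kb (top, linear axis, lines for wild type ChIP, ΔLEO1 ChIP and input) and log2 ΔLEO1 over wild type ChIP (bottom, symbols by segment type, rings around the 12 segments called in 0.1% serum). Points of the V stretch lie below 0 in 49 of 50 windows, while J, D and C segments on the right scatter about 0 or above.

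Single segments were tested in 0.1% serum with edgeR. Of the 142 T cell receptor windows tested, 12 were lower in ΔLEO1, beside 0.294% of all windows tested, and 0 were higher, beside 0.0909%. All 12 were TRAV segments. The median log2 difference over the 52 TRAV windows tested was -0.69, with 47 of them negative, against -0.10 over all T cell receptor windows tested and -0.003 over all windows tested. The count depended strongly on the fit. DESeq2 called 0 members and 0 windows in all at the same threshold (1750 windows had an unadjusted p under 0.05), and so did an edgeR fit with the nearly empty library kept (5780 windows). Subtracting the difference between inputs left 0 members and 24 windows. All 12 segments kept a negative sign in each of these fits.

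The smallest adjusted p-values were those of TRAV4 and TRAV13-2. TRAV4 held 13.2, 13.4, 13.0 and 11.4 CPM in wild type ChIP (10% serum A and B, 0.1% serum A and B), 5.80, 3.37 and 3.19 CPM in ΔLEO1 ChIP (10% serum B, 0.1% serum A and B) and 1.05 to 4.79 CPM in input. TRAV13-2 held 10.7, 10.9, 8.55 and 11.4 CPM in wild type, 4.22, 2.45 and 2.28 CPM in ΔLEO1 and 2.87 to 7.17 CPM in input. Neither overlapped between genotypes, and the fitted log2 differences in 0.1% serum were -1.69 (SE 0.31, edgeR adjusted p = 0.000847) and -1.75 (SE 0.35, adjusted p = 0.00154).

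TRAV25 and TRAV23DV6 came next. TRAV25 held 11.1, 10.9, 12.0 and 13.1 CPM in wild type against 5.28, 4.29 and 4.10 CPM in ΔLEO1 (log2 difference -1.42, edgeR adjusted p = 0.00395). TRAV23DV6, whose name marks it as joined in alpha and in delta chains, held 14.5, 14.5, 7.18 and 12.6 CPM against 4.75, 2.76 and 3.64 CPM (-1.43, adjusted p = 0.0148). In TRAV23DV6 the wild type library of 0.1% serum A lay well under the other wild type libraries, yet above all of ΔLEO1.

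TRAV18, TRAV11 and TRAV24 were called as well. TRAV18 held 5.98, 12.7, 13.7 and 10.1 CPM in wild type and 6.33, 4.90 and 4.56 CPM in ΔLEO1, where the wild type library of 10% serum A lay within the ΔLEO1 range (log2 difference in 0.1% serum -1.22, edgeR adjusted p = 0.0215). The pseudogene TRAV11 held 12.4, 11.9, 8.90 and 5.90 CPM against 3.17, 1.22 and 3.64 CPM (-1.49, adjusted p = 0.0283). TRAV24 held 12.8, 7.96, 10.3 and 13.1 CPM against 1.58, 5.21 and 3.64 CPM (-1.21, adjusted p = 0.0286). In TRAV11 and TRAV24 no ΔLEO1 library reached a wild type library.

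The last 5 lay near the threshold, with edgeR adjusted p from 0.0402 to 0.0479. TRAV5 held 10.3, 12.3, 10.6 and 7.16 CPM in wild type and 2.64, 4.90 and 0.91 CPM in ΔLEO1 (log2 difference -1.28), and TRAV29DV5, also shared with the delta chain, 9.40, 10.5, 8.90 and 9.27 CPM against 3.17, 3.06 and 3.64 CPM (-1.28). TRAV3 held 12.0, 15.9, 14.4 and 8.00 CPM against 3.69, 5.51 and 4.10 CPM (-1.11). TRAV12-1 held 12.4, 9.77, 12.0 and 8.43 CPM against 3.69, 4.90 and 3.19 CPM (-1.17), and TRAV27 14.1, 11.9, 13.0 and 11.4 CPM against 5.28, 6.74 and 3.64 CPM (-1.07). All 5 were separated between genotypes in both sera.

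Leaving out 1 library of 0.1% serum lowered the number of members called from 12 to 2 without wild type replicate A, 4 without wild type replicate B, 1 without ΔLEO1 replicate A and 4 without ΔLEO1 replicate B. The signs of all 12 held in each case. With the totals of the peak table as library sizes, 4 members were lower and 5 higher, and the split over all windows turned from 0.0909% higher and 0.294% lower to 2111 higher and 137 lower.

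Over both sera, a contrast added after the values were seen, 18 members were lower in ΔLEO1, beside 0.857% of all windows tested, and 1 was higher, beside 0.230%. The 18 included all 12 named above, with TRAV6, TRAV10, TRAV16, TRAV30, TRAV35 and TRDV1 in addition. TRDV1, the delta V segment inside the TRAV stretch, held 10.3, 11.6, 7.53 and 6.74 CPM in wild type and 2.11, 4.59 and 3.64 CPM in ΔLEO1 (log2 difference -1.36, edgeR adjusted p = 0.00422). The number lower was between 13 and 16 when 1 of 6 libraries was left out. The remaining one, ΔLEO1 10% serum B, was not left out because it is the only ΔLEO1 ChIP library of that serum. DESeq2 called 0 (3270 windows of the table had an unadjusted p under 0.05). TRDV2 and TRDV3, which lie before the delta D segments and behind TRDC, had pooled log2 differences of 0.02 and -0.01.

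Without a model, every ΔLEO1 library lay below every wild type library in 34 of the 142 members tested, beside 5.25% of all windows, and above in 9, beside 5.57%. The 34 comprised 29 of 52 TRAV windows, TRDV1, TRAJ14, TRGV1, TRGC1 and TRGJP2. The TRAV8 family, 7 V segments spread over 337 kb, was lower in ΔLEO1 in all 7 pooled values (median log2 difference -0.61), from -0.89 to -0.15, the last being TRAV8-7.

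The delta segments other than V had higher values in ΔLEO1. TRD in all held 81.2, 80.3, 77.0 and 78.8 CPM in wild type ChIP and 93.4, 86.6 and 92.0 CPM in ΔLEO1 ChIP, without overlap (ratio 1.14, exact permutation p = 0.0571, the smallest possible), against an input ratio of 1.05 (p = 0.571). Some reads counted more than once, since 6 of the 11 TRD windows overlap another one. Without overlapping windows the sums were 57.1 to 64.1 CPM in wild type and 60.6 to 64.2 CPM in ΔLEO1, so that the genotypes were not separated. TRDD1 held 3.84, 5.43, 4.11 and 2.95 CPM in wild type and 10.6, 5.82 and 9.57 CPM in ΔLEO1. It was the 1 member called higher over both sera (log2 difference 0.96, edgeR adjusted p = 0.0390), a call that was lost without wild type 10% serum A, either wild type library of 0.1% serum or ΔLEO1 0.1% serum B. TRDD2, whose window shares most of its bases with that of TRDD1, and TRDJ1 and TRDJ2 also had every ΔLEO1 library above every wild type library. TRDC held 12.4, 8.68, 10.3 and 8.00 CPM in wild type and 13.7, 9.49 and 9.57 CPM in ΔLEO1, with overlap.

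In TRG the genotypes overlapped in the sum (ratio 0.997 over both sera, exact permutation p = 0.857). TRGJ1 held 2.56, 4.70, 3.08 and 4.21 CPM in wild type and 8.44, 7.35 and 7.29 CPM in ΔLEO1, without overlap, but it was not called (over both sera, log2 difference 0.95, edgeR adjusted p = 0.0609). TRB had a ratio of 1.41 (30.1 to 38.0 against 23.9 to 25.3 CPM, exact permutation p = 0.0571), which rests on 57 to 124 reads per library. Some of these reads counted more than once, since 17 of the 78 windows overlap another one. Without overlapping windows the sums were 25.3 to 28.7 CPM in ΔLEO1 and 20.1 to 23.5 CPM in wild type. TRBV alone had a ratio of 1.20 (exact permutation p = 0.0571).

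The inputs showed no called genotype difference. In 0.1% serum edgeR called 0 of 148 members and 0% of all windows (10754 windows had an unadjusted p under 0.05, and DESeq2 called 0 as well). The median log2 difference of the TRAV windows in input was -0.05.

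Between sera, the gamma locus differed most among the 4 loci. In wild type the TRG sum was 82.0 and 96.6 CPM in 10% serum and 123.8 and 119.7 CPM in 0.1% serum, a ratio of 1.37 that 2 against 2 libraries cannot take below an exact permutation p of 0.33. The ΔLEO1 libraries gave 82.3 CPM in 10% serum and 116.3 and 116.6 CPM in 0.1% serum. Over both genotypes the 4 libraries of 0.1% serum lay above the 3 of 10% serum (ratio 1.37, exact permutation p = 0.0571, the smallest possible), while the inputs had a ratio of 1.06 (p = 0.286). TRGV carried most of it, with 58.1 and 63.7 CPM against 89.0 and 87.6 CPM in wild type (ratio 1.45), and 51.7 against 84.5 and 77.9 CPM in ΔLEO1.

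**Figure D5:**
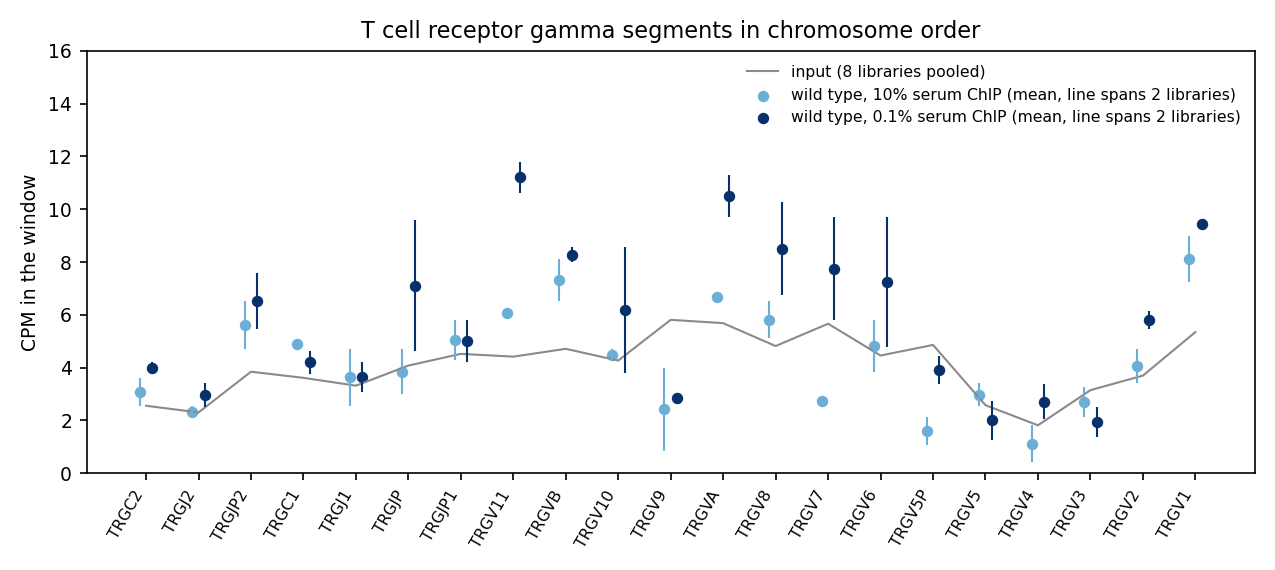
CPM of each TRG window in the ChIP libraries of 10% and of 0.1% serum, on a linear axis. Of the 14 TRGV windows, 12 have a higher mean in 0.1% serum in wild type, 8 of them without overlap between the 2 and 2 libraries, beside 21.4% of all windows tested. The share is over windows that passed the read filter, as only 10 of the 14 TRGV windows did.

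Among single segments, 8 of 14 TRGV windows had both wild type libraries of 0.1% serum above both of 10% serum, beside 21.4% of all windows tested, and 5 had all 4 libraries of 0.1% serum above all 3 of 10% serum, beside 6.21%. Both shares are over windows that passed the read filter, as only 10 of the 14 TRGV windows did. In edgeR 0 of 142 members passed in either direction, beside 0.0738% higher and 0.184% lower of all windows (13460 windows had an unadjusted p under 0.05, and DESeq2 called 0 windows). The smallest p among members was that of the pseudogene TRGV7, with 2.56 and 2.89 CPM in 10% serum and 5.82 and 9.69 CPM in 0.1% serum (log2 difference 1.21, edgeR adjusted p = 0.129). TRGV11 followed with 5.98 and 6.15 against 10.6 and 11.8 CPM (0.77, adjusted p = 0.321). TRAJ49 had 2.56 and 4.70 against 5.47 and 10.5 CPM (0.89, adjusted p = 0.334), and TRAV36DV7 17.1 and 13.8 against 7.87 and 12.2 CPM (-0.63, adjusted p = 0.338).

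TRA had a wild type ratio of 0.978 and TRD of 0.964 in ChIP, and with the totals of the peak table both turned above 1, at log2 differences of 0.11 and 0.09. In the inputs, TRD and TRAJ were higher in all 4 libraries of 0.1% serum than in all 4 of 10% serum, with ratios of 1.18 and 1.08 (exact permutation p = 0.0286 each, the smallest possible), so that input itself shifted with serum there.

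For each other gene, the window where most of its listed transcripts start was read. Of the 10 T cell genes, among them the receptor partners CD3D, CD3E, CD3G and CD247 and the coreceptors CD4, CD8A and CD8B, 9 were higher in ChIP than in input and 0 lower, beside 37.8% higher and 37.9% lower of all windows tested, with a median log2 difference of 0.70. Of 14 fibroblast genes, 13 were lower and 1, COL6A1, was higher (median -1.88), with VIM, which encodes the filament protein vimentin, at -3.17. B cell genes gave 2 higher and 1 lower of 5, near the shares of all windows. Of 15 receptor partners and signalling genes, 9 were higher and 2 lower (median 0.60). CD3D, CD3E, CD3G, CD247, CD4, CD8A, CD8B and LCK stand both in this list and among the T cell genes. The counts of these lists are therefore not independent. Of 9 T cell transcription factors, 1 was higher and 2 lower.

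Of the 13 V(D)J recombination genes, whose products cut and join the segments, 10 were lower in ChIP and 3 higher, with a median of -0.89, and RAG1 and RAG2, which make the cut, stood at -0.68 and -0.89. Of 24 locus neighbours, 16 could be tested, of which 8 were higher and 2 lower (median 0.43). For both lists the shares over all windows tested were 37.8% higher and 37.9% lower. Between genotypes in 0.1% serum and between sera 0 genes of these 7 lists were called, where the share over all windows was under 1% in each direction and fewer genes could be tested, 2 of 14 fibroblast genes, 6 of 13 V(D)J recombination genes, 6 of 9 transcription factors, 4 of 5 B cell genes, 14 of 15 receptor partners and signalling genes, 15 of 24 locus neighbours and all 10 T cell genes.

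The immunoglobulin segments, the matching gene families of B cells, served as a comparison. Their summed log2 ChIP over input was 0.40 ± 0.20 (SD, n = 7 libraries) against 0.73 ± 0.17 for the T cell receptor segments. The difference within a library was 0.33 ± 0.14, positive in 7 of 7 libraries (exact sign-flip permutation p = 0.0156, the smallest possible). Without overlapping windows it was 0.29, positive in 6 of 7 libraries (exact sign-flip permutation p = 0.0313). Against the heavy chain locus alone it was -0.65, negative in 7 of 7 libraries, and only 140 of the 357 immunoglobulin windows held 80 or more input reads.

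The peak table, which the choice of segments did not use, was read for regions inside these loci. Of its regions, 2 had their centre within the TRA span, at chr14:22236503-22237387 and chr14:21835943-21836516, annotated to the retroviral repeats LTR17 and MER52A, and the first also lies in the TRD span. The TRB and TRG spans held 0. How many regions spans of this length hold elsewhere in the genome was not computed, and TRB holds few reads of any kind. Both regions lie inside the TRAV stretch, and their log2 differences between ΔLEO1 and wild type ChIP were 0.05 and -0.20, on the CPM scale of the peak table. The first held 65.4 CPM in ΔLEO1 ChIP, 63.3 in wild type ChIP and 57.1 in input. The second held 42.3, 48.6 and 45.6 CPM. This scale differs from that of the TRAV sums, so these differences cannot be set beside the TRAV ratios.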

How the data were processed

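ChIP-seq and input DNA of 16 libraries (8 groups of 2) were analysed. Per the labels and the study's methods, fly chromatin was added to each sample, csaw was used for counting and signals were scaled to the fly reads. The submitters' processing notes name bcl2fastq 2.20.0.422, STAR 2.7.10a, HOMER and the builds hg38 and dm6. The duplicate handling and the libraries used for calling peaks are not given in the sources used here. Counts of reads per window (TSS table) and per region (peak table) were deposited by the authors unscaled, as whole numbers. Neither holds fly windows, so spike-in scaling was not used here. Windows of the TSS table with repeated coordinates were kept once. Coordinates are those of the tables, segment types were read from the gene symbols, and pseudogene status comes from RefSeq.

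Sums per locus and segment type were divided by library totals over distinct windows and compared as log2 CPM by exact permutation over libraries, two-sided, doubling the smaller tail. All windows were tested with edgeR 4.0.16 in R 4.3.3 (TMM, filterByExpr with a minimum count of 10, prior count 2, quasi-likelihood F test, 1 coefficient per group, Benjamini-Hochberg adjustment over all windows tested, threshold 0.05). The standard errors come from the F statistic. The code was tested on simulated counts. For ChIP against input the 3 groups with 2 ChIP libraries were set against their inputs. Pooled values of a window are summed reads over summed totals, and the pooled ΔLEO1 level includes 10% serum replicate B.

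Segments were named by a rule. The constant genes and the TRD segments other than V were always named, with the 3 highest and 3 lowest of each locus in pooled ChIP over input among windows of at least 80 input reads, every member called between genotypes or sera, and the 4 with the smallest p. Others were chosen after their values were seen. The 7 lists were locus neighbours, V(D)J recombination, receptor partners and signalling, T cell transcription factors, fibroblast, T cell and B cell genes. Members and lists were chosen with earlier results of these data known.

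The alternatives were non-overlapping windows, TMM-scaled totals, totals of the peak table, no filter, no TMM, all windows as deposited, DESeq2 1.42.0, the replicate letter as a block, all 8 ChIP libraries, the input difference taken off and leaving out each library. The letters A and B did not pair the libraries: across groups of the same kind the correlation of A minus B was 0.002 to 0.012 in ChIP and 0.013 to 0.108 in input. At this depth a T cell receptor window of TRA holds about 219 input reads in all, and since reads carry no molecular identifiers, copies of 1 molecule can count repeatedly.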

Additional observations from a re-analysis of the deposited data

Results flagged for a closer look

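Segments outside the loci were read as well. The 9 TRB windows on chromosome 9, displaced copies (orphons) that belong to no comparison above, held 1097 reads in the 7 ChIP libraries and 1865 in the 8 inputs. Their pooled level was 61.8 CPM in ChIP and 39.4 CPM in input, a log2 difference of 0.65. Of all windows tested in edgeR, 37.8% were higher in ChIP than in input. The difference with the totals of the peak table, which took every locus below input, was not computed for them. They were singled out because this level lies above that of the input controls, and no test was made.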

How the results depend on the processing

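With the totals of the peak table as library sizes, ChIP over input turned negative for every locus and segment type: TRA -1.13, TRB -1.69, TRD -1.23, TRG -1.66, TRAV -1.22, TRAJ -1.08, TRAC -1.61, TRBV -1.39, TRDV -1.19, TRDD -1.37, TRDJ -1.34, TRDC -0.74, TRGV -1.72, TRGJ -1.52 and TRGC -1.68. The genotype difference in 0.1% serum became 0.10 for TRA and 0.24 for TRG, and the serum difference 0.11 for TRA, 0.0872 for TRD and 0.000242 for TRAV, while TRAV between genotypes stayed at -0.46. Under these totals edgeR called 2248 of 153997 windows between genotypes (2111 higher and 137 lower), with 5 of 145 members higher and 4 lower. TMM-scaled totals took TRB to 0.37, TRAC to 0.45 and TRGV to 0.34 past the threshold, and non-overlapping windows took TRB to 0.50. Without TMM the median of all windows in ChIP against input moved to -0.12 and with DESeq2 to -0.17. T cell receptor against immunoglobulin turned to -0.65 with the heavy chain locus alone. Without the filter 9 members were lower in ChIP than input, and 7 lower in ΔLEO1.

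Members lower in ΔLEO1 in 0.1% serum, 12 as reported, numbered 0 with the input difference taken off, with DESeq2 and with all 8 ChIP libraries, and windows in all 24, 0 and 0. Between sera these settings called 1, 0 and 4 windows. Over both sera DESeq2 called 0 windows, and without the filter or with the block 0 members were higher. Leaving out 1 library at a time gave 1 to 4 members and 42 to 199 windows between genotypes, 7 to 116 windows between sera, 0 to 9 windows between the inputs, and over both sera 0 to 2 members higher and 790 to 1122 windows. ChIP over input ran from 0.17 to 0.28 for TRB, 0.22 to 0.32 for TRG, 0.21 to 0.42 for TRAC, 0.16 to 0.29 for TRGV and 0.19 to 0.39 for TRGC. With the replicate letter as a block, 12 members and 599 windows were called between genotypes, all 12 members being among those above, and pairing each ChIP library with the input of its letter gave 0.81 for TRA. The cause of these differences was not tested. The shallow TRB counts limit every statement on that locus.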
